A study of Sus scrofa domesticus with 6 samples.

Results

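The genes described are PLAU, PLAT, PLAUR, F3, TFPI, TFPI2 and THBD, which encode activators, a receptor, an initiator and inhibitors of clot lysis and clotting. They were taken by exact name from the gene lists of 6 single-cell count matrices, and are 7 of 33025 genes listed in at least 1 library and 7 of the 23556 genes listed in all 6. On the pig assembly Sscrofa11.1, RefSeq places PLAU at chr14:76629313-76635173, PLAT at chr17:11195599-11223821, PLAUR at chr6:50489773-50505453 and F3 at chr4:122827018-122837673. TFPI lies at chr15:92345083-92409962, TFPI2 at chr9:73684236-73694663 and THBD at chr17:30219870-30223499. All are annotated as protein-coding.

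Clotting starts when tissue factor (F3) on a cell surface meets the clotting factors of the blood, and a clot is dissolved by plasmin. Plasminogen is turned into plasmin by the urokinase-type activator (PLAU), which is held on cells by its receptor (PLAUR), and by the tissue-type activator (PLAT), a product of endothelium. Tissue factor pathway inhibitor (TFPI) blocks the complex that F3 forms, TFPI2 is a related inhibitor of plasmin and other proteases, and thrombomodulin (THBD) on endothelium turns thrombin into an activator of the anticoagulant protein C.

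Cells came from a pig (Sus scrofa domesticus) single-lung transplant model. In the IRI (ischemia-reperfusion injury) group, the graft had 24 h of cold ischemia and 8 h of reperfusion, and its live cells were sorted on CD45, a surface protein of leukocytes. There are 2 libraries of CD45+ cells (IRI CD45+) and 1 of CD45- cells (IRI CD45-). The control group is 3 libraries of unsorted cells from the right lung of donors, sampled after retrograde perfusion. Tissue of both groups was digested and freed of red cells in the same way. Every IRI library was sorted and no control library was, so injury and sorting cannot be told apart in any comparison. The labels speak of 3 pairs of specimens but do not tie a library to a pair, and give no breed, age or sex, so p-values measure the spread between these libraries only.

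The libraries hold 19098567 to 40647380 UMIs (unique molecular identifiers, 1 for each captured RNA molecule), and 40776 cells were kept, with 4066 to 15017 per library. The IRI libraries include cells with as few as 74 UMIs, against at least 1001 in the control libraries, and 13 mitochondrial genes are listed in the control libraries only. Levels are therefore given as UMIs per 1000000 UMIs of the genes listed in all 6 libraries (UPM), summed over the cells of a class in a library. Classes were built from marker genes after clustering without the 7 genes, and each class name means "like" that cell type. Of the 64 clusters, 22 could not be named from the markers. Immune classes made up 14.5% of the IRI CD45- cells, so the sort was not complete, and structural classes made up at most 0.148% of the cells of either IRI CD45+ library. Cells are numbered within each library, so cells shared between libraries could not be counted.

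Graft and control cells of the vascular and stromal classes and of T and NK cells mostly lay in different clusters, while those of B, dendritic, plasma and ciliated cells and of mast cells and basophils shared a cluster. Fibroblasts of the graft formed a cluster led by PTX3, IL6 and ADAMTS4, and those of the control lung a cluster led by COL1A2, DCN and COL1A1. Blood endothelial cells of the graft were led by CLDN5 and CDH5 and those of the control lung by FMO1 and APOA1. Lymphatic clusters of both groups were led by CCL21. Smooth muscle and pericyte clusters of the graft were led by TNC, BDKRB2 and LMCD1 and that of the control lung by ACTA2 and MYH11. Of the T and NK cells, a cluster led by LEF1, IL7R and S1PR1 held 1240 and 771 cells of the IRI CD45+ libraries, against 9, 30 and 18 of the control libraries, and one led by GZMB, ADGRG1 and GZMH held 966 and 601, against 25, 30 and 41. Control T and NK cells lay mainly in other clusters, led by GNLY and GZMA, by KLRK1 and KLRB1 or by CD40LG, so a change within this class and a change of its subtypes cannot be told apart. Macrophages of both groups shared a cluster led by CCL8, C1QB and C1QA, with a part of the graft's macrophages in a cluster led by CCR1, ACVRL1 and SDC2. The latter held 2 and 18 cells of the IRI CD45+ libraries and 0 control cells. Another macrophage cluster, led by FCN2 and CYP7A1, held 6 and 4 IRI CD45+ cells, against 12, 68 and 148 control cells. For macrophages too, a change within the class and a change of its subtypes cannot be told apart. Every monocyte cluster had the neutrophil list as its second score. The monocyte cluster led by LTF and IL1R2 scored 3.14 for monocytes and 2.74 for neutrophils. Levels of the monocyte and neutrophil classes are therefore not cleanly parted. The summed level of the class's own markers was lower in the graft than in every control library for fibroblasts (30917 against 59363 to 86551 UPM), smooth muscle cells and pericytes (6219 against 15610 to 21189 UPM), blood endothelium (5232 against 7034 to 8904 UPM) and lymphatic endothelium (12427 against 15028 to 17873 UPM). The part of this gap in the results was not tested. In these vascular and stromal classes too, a change within a class and a change of its subtypes cannot be told apart.

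In control lung, each gene had its own distribution over the cell classes. Macrophages held 42.6%, 41.3% and 56.7% of all PLAU UMIs of the 3 libraries and 50.4%, 49.4% and 59.2% of all PLAUR UMIs. Fibroblasts held 88.9%, 88.2% and 93.1% of the TFPI2 UMIs, and lymphatic endothelium 81.1%, 74.2% and 77.8% of the TFPI UMIs. PLAT was spread over blood endothelium (25.3%, 27.6% and 42.9%), fibroblasts (33.3%, 35.5% and 22.9%) and lymphatic endothelium (23.6%, 13.1% and 18.4%). THBD lay mainly in blood endothelium (37.0%, 16.6% and 32.6%) and macrophages (35.5%, 45.9% and 26.4%), and F3 in fibroblasts (24.1%, 35.1% and 52.7%) and macrophages (32.7%, 40.5% and 22%). These shares also depend on how many cells of each class a library caught.

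**Figure D1:**
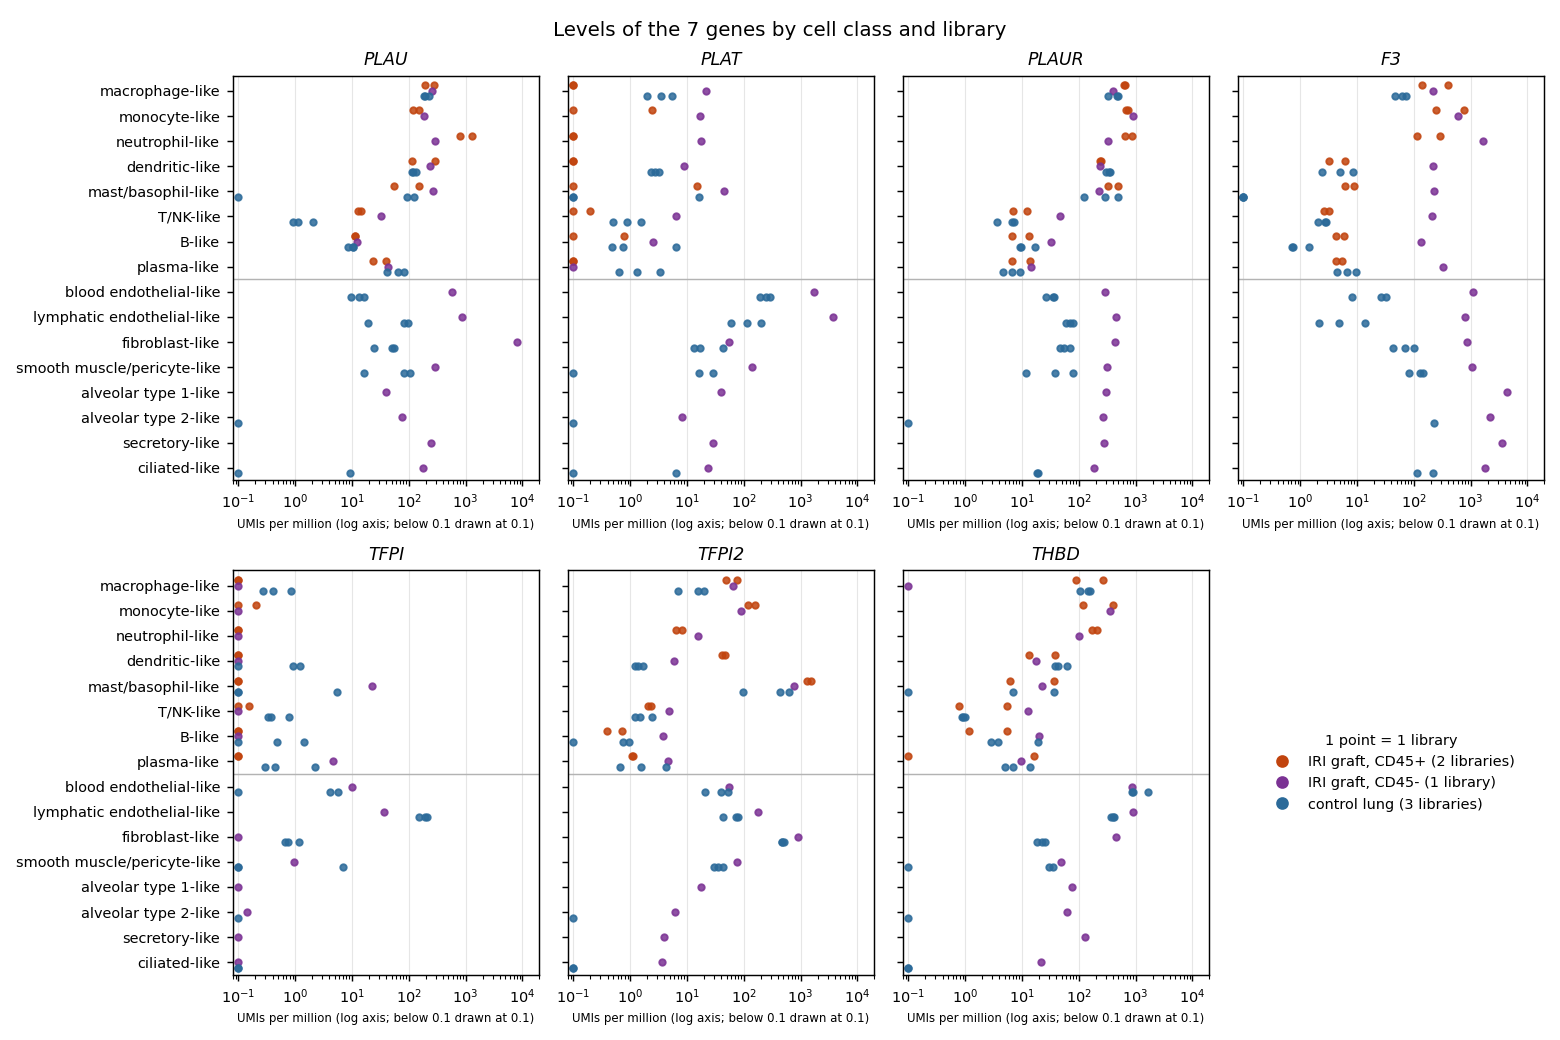
Level of each gene (UPM, log axis; values below 0.1 are drawn at 0.1) in each cell class, with 1 point for each library that has at least 20 cells of the class. PLAU of the graft's fibroblasts (8222 UPM) and F3 of the graft's epithelial classes (1833 to 4327 UPM) stand to the right, and control points of TFPI are highest in lymphatic endothelium (154 to 210 UPM).

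Differences between control classes were tested on UMI sums of the 3 libraries, with the library as a block. Blood endothelium was higher than fibroblasts in THBD (log2 difference 5.17 ± 0.362 SE) and PLAT (3.11 ± 0.449), and lower in TFPI2 (-4.26 ± 0.388), F3 (-1.87 ± 0.356) and PLAUR (-1.18 ± 0.425). That makes 5 of 7 genes called by edgeR's quasi-likelihood test at a Benjamini-Hochberg adjusted p under 0.05, where 32.1% of all genes were called (13.7% higher and 18.4% lower). The PLAUR call (edgeR adjusted p = 0.0354) was lost without control library 2 (0.101) and without control library 3 (0.219). Macrophages exceeded blood endothelium in PLAU (4.48 ± 0.656), PLAUR (4.12 ± 0.367) and F3 (1.77 ± 0.36), and were lower in PLAT (-5.53 ± 0.528) and THBD (-2.57 ± 0.311), again 5 of 7 genes where 40.5% of all genes were called (22.8% higher and 17.7% lower). Against T and NK cells, macrophages were higher in 6 of 7 genes, where 25.7% of all genes were higher, 24.4% lower and 50.1% either: PLAU (7.28 ± 0.492), THBD (7.21 ± 0.457), PLAUR (6.28 ± 0.3), F3 (4.6 ± 0.27), TFPI2 (3.09 ± 0.422) and PLAT (2.05 ± 0.706). The PLAT call was lost without control library 2 (edgeR adjusted p = 0.204). PLAT was low in both, with control means of 3.69 UPM in macrophages (38 UMIs) and 0.98 UPM in T and NK cells (26 UMIs).

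In the graft, most of the genes that could be tested were higher in vascular and stromal classes. In fibroblasts 5 of 6 were higher and 0 lower, where 11.6% of all genes were higher, 13.1% lower and 24.7% either. Smooth muscle cells and pericytes had 5 of 6 higher and 0 lower (all genes: 19.1% higher, 12.8% lower, 32.0% either). Blood endothelium had 4 of 6 higher and 0 lower (all genes: 16.5% higher, 12.7% lower, 29.2% either). Lymphatic endothelium had 5 of 7 higher and 1 lower (all genes: 15.7% higher, 15.5% lower, 31.2% either). Ciliated cells, with 2 control libraries, had 3 of 3 higher (all genes: 15% higher, 9.74% lower, 24.7% either). These fits rest on 1 IRI CD45- library that is assumed to vary like the controls. Scaling to library totals alone moved the median change of all genes by -0.22 to -0.42 in these 5 classes, and the higher and lower shares became 9.33% and 19.2% in fibroblasts (11.6% and 13.1% before), 11.7% and 17.9% in smooth muscle cells and pericytes (19.1% and 12.8%), 11.3% and 19.1% in blood endothelium (16.5% and 12.7%), 12.4% and 19.5% in lymphatic endothelium (15.7% and 15.5%) and 8.34% and 14.3% in ciliated cells (15% and 9.74%). The genes called kept their direction under it.

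Immune classes, with 2 IRI CD45+ and 3 control libraries, gave fewer calls. Macrophages had 3 of 5 genes higher and 0 lower (all genes: 12.4% higher, 17.7% lower, 30.1% either). This class held only 36 and 49 cells in the IRI CD45+ libraries, against 300, 444 and 439 in the control libraries. T and NK cells had 2 of 4 higher and 0 lower (all genes: 31.7% higher, 34.2% lower, 65.9% either), in a class where most genes were called. Mast cells and basophils had 1 of 3 higher and 0 lower (all genes: 9.79% higher, 12.8% lower, 22.6% either). Dendritic cells had 1 of 5 higher and 1 lower (all genes: 15.5% higher, 20.9% lower, 36.3% either), and plasma cells 0 of 4 higher and 1 lower (all genes: 14.9% higher, 21.4% lower, 36.3% either). In B cells edgeR called 0 of 3 (all genes: 21.2% higher, 23.9% lower, 45.1% either), with 0 at an unadjusted p under 0.05 and 0 by DESeq2. Scaling to library totals turned the higher and lower shares to 13.6% and 9.79% in mast cells and basophils (9.79% and 12.8% before) and to 19.9% and 18.3% in plasma cells (14.9% and 21.4%). Monocytes, neutrophils, alveolar type 1, alveolar type 2 and secretory cells were too few in the control libraries for a test, so their levels are described without one.

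**Figure D2:**
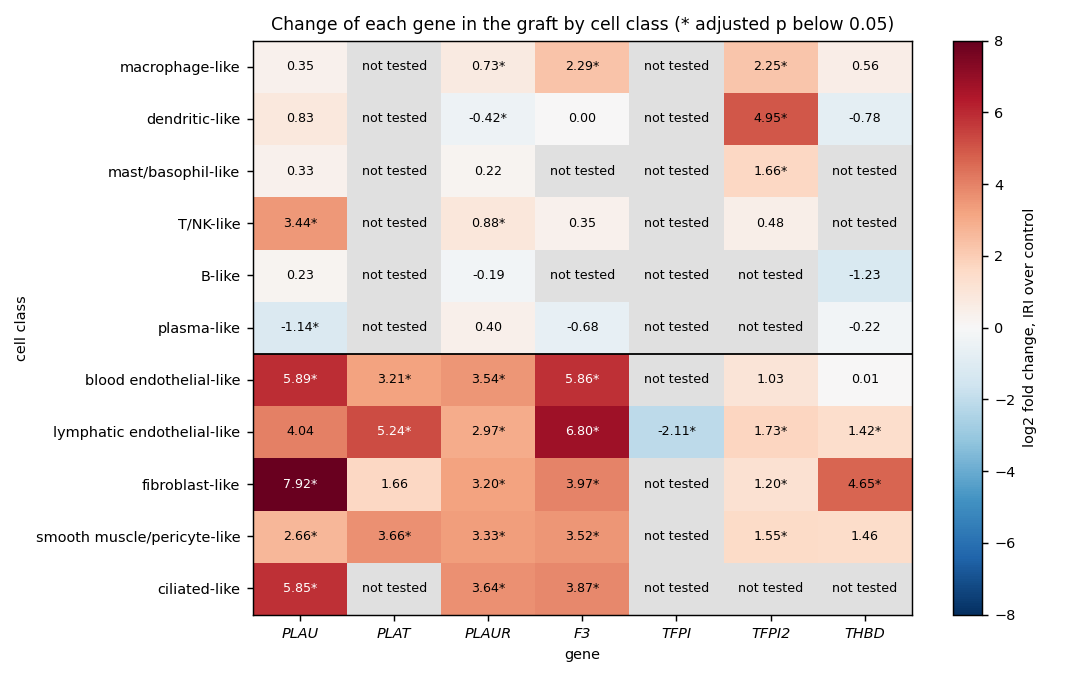
Log2 fold change of each gene, IRI over control, in each cell class with a test (edgeR's quasi-likelihood test; stars mark an adjusted p under 0.05; the line parts immune from structural classes). Vascular and stromal classes are red in most columns, with the highest value for PLAU in fibroblasts (7.92), and TFPI in lymphatic endothelium is the starred value below 0 among them (-2.11).

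PLAU, the urokinase-type plasminogen activator, had its highest level in the graft's fibroblasts. It reached 8222 UPM (2386 UMIs in 122 cells) in the IRI CD45- library, against 54.5, 50.4 and 24.5 UPM in the fibroblasts of control libraries 1, 2 and 3. The groups lie far apart, and PLAU rose by a log2 fold change of 7.92 ± 0.459 (SE; edgeR adjusted p = 0.000211). Of the 122 graft fibroblasts, 118 lay in a cluster with 0 control cells. A change within fibroblasts and a change of their subtypes therefore cannot be told apart, for PLAU or any other gene. Of the graft's fibroblasts 81.1% had a PLAU UMI, against 10.4%, 9.42% and 5.22% of control fibroblasts. Thinning each cell to 500 UMIs left shares of 71.3% in the graft, against 2.16%, 1.6% and 0.678% in the control libraries. In B cells of the same graft library, 1.34% had a PLAU UMI. Their median was 2201 UMIs per cell, against 1628.5 in that library's fibroblasts. B cells had PLAU at 12.5 UPM there and at 8.37 to 10.6 UPM in the control libraries. Fibroblasts held 27.7% of the PLAU UMIs of the IRI CD45- library from 122 of its 15017 cells. Unnamed cells split from the same first cluster as most of these fibroblasts, 214 in number, had PLAU at 930 UPM.

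Blood endothelium had 569 UPM of PLAU in the graft, against 13.2, 16.5 and 9.61 UPM in the control libraries, a rise of 5.89 ± 0.429 (log2; edgeR adjusted p = 2.35e-16). Smooth muscle cells and pericytes had 287 UPM, against 106, 81.1 and 16.4 UPM (2.66 ± 0.438; edgeR adjusted p = 3.25e-08). In lymphatic endothelium, PLAU stood at 877 UPM in the graft and at 83.0, 96.5 and 19.1 UPM in the control libraries. The groups do not overlap there, but the log2 fold change of 4.04 ± 0.858 was not called (edgeR adjusted p = 0.0786). DESeq2 called it (DESeq2 adjusted p = 0.0116), as did the fits without any 1 of the control libraries. Ciliated cells had 177 UPM in the graft, against 9.32 and 0 UPM in 2 control libraries that held 1 PLAU UMI between them.

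Among leukocytes, PLAU was highest in neutrophils, with 1281 and 807 UPM in the IRI CD45+ libraries. The 574 neutrophils of the IRI CD45- library had 291 UPM, near its mast cells and basophils (270 UPM) and macrophages (257 UPM). Of these neutrophils 534 lay in a cluster that held only 17 of 359 and 27 of 195 IRI CD45+ neutrophils. That cluster scored 3.46 for neutrophils and next 1.87 for alveolar type 2 cells. The neutrophil levels of the CD45- and CD45+ libraries are thus mainly those of different clusters. Macrophages had 279 and 195 UPM in the IRI CD45+ libraries, against 190, 194 and 229 UPM in the control libraries. The groups overlap, and the log2 difference of 0.35 had an interval of -0.05 to 0.75. T and NK cells rose to 14.4 and 12.8 UPM, against 1.11, 2.08 and 0.905 UPM (3.44 ± 0.315; edgeR adjusted p = 3.6e-07). The level in T and NK cells was low beside that of neutrophils, and neutrophil markers also summed higher there: 86.5 and 116 UPM in the IRI CD45+ libraries, against 33.9 to 52.6 UPM in the control libraries, with 7 of 8 markers found in each of the 5. The part of neutrophil RNA in the PLAU rise of T and NK cells was not tested. Plasma cells fell to 39.7 and 23.7 UPM, against 64.2, 82.1 and 41.6 UPM (-1.14 ± 0.358; edgeR adjusted p = 0.031), a call lost without IRI CD45+ library 1 (adjusted p = 0.131) or 2 (0.349). Dendritic cells had 116 and 287 UPM, against 117, 115 and 132 UPM, which was not called (0.83 ± 0.299; edgeR adjusted p = 0.0522). Without IRI CD45+ library 1 the dendritic value became 1.35 and was called, and without library 2 it was -0.07.

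PLAT, the tissue-type plasminogen activator, was a gene of endothelium in both groups. Lymphatic endothelium had 3700 UPM in the graft, against 200, 60.1 and 113 UPM in the control libraries (5.24 ± 0.611; edgeR adjusted p = 0.0253), a call lost without control library 3 (0.265). A PLAT UMI was found in 72.1% of its graft cells, against 14.3%, 14.5% and 11.6% of control cells. In blood endothelium PLAT rose to 1730 UPM, against 194, 243 and 292 UPM (3.21 ± 0.319; edgeR adjusted p = 1.06e-11). The lymphatic and blood endothelial cells held 39.1% and 38.6% of the PLAT UMIs of the IRI CD45- library. The background was low, since PLAT was at 2.49 UPM in B cells of that library and 0.669% of them had a UMI.

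Outside endothelium, PLAT rose to 141 UPM in smooth muscle cells and pericytes, against 28.3, 0 and 16.4 UPM (3.66 ± 0.587; edgeR adjusted p = 1.01e-08). Fibroblasts had 55.1 UPM, against 43.9, 17.1 and 13.5 UPM, with no call (1.66 ± 1.13; edgeR adjusted p = 0.35). PLAT of fibroblasts was called without control library 1 (edgeR adjusted p = 0.00454) and with no filter on low counts (0.0234). Macrophages and dendritic cells had 0 PLAT UMIs in both IRI CD45+ libraries. Control macrophages had 2.02, 5.54 and 3.51 UPM from 5, 20 and 13 UMIs.

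**Figure D3:**
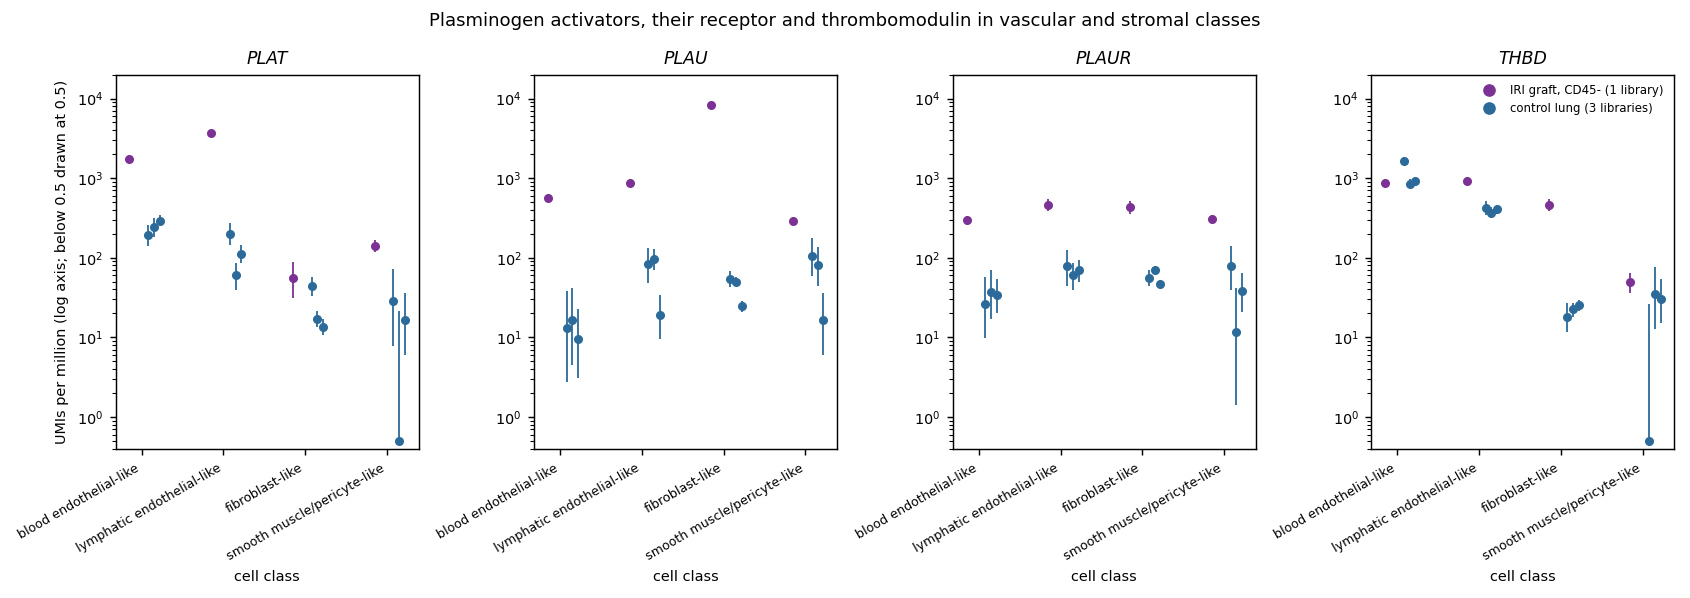
Levels of PLAT, PLAU, PLAUR and THBD (UPM, log axis; values below 0.5 are drawn at 0.5) in 4 vascular and stromal classes, with 1 point per library and exact Poisson 95% intervals that cover counting error only. The single graft point lies above all 3 control points in every class for PLAT, PLAU and PLAUR, while THBD of blood endothelium (865 UPM in the graft) lies within the control range of 856 to 1641 UPM.

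PLAUR, the urokinase receptor, was highest in myeloid cells in control lung and in the IRI CD45+ libraries. The IRI CD45- library had most in monocytes (908 UPM), but lymphatic endothelium (461 UPM) and fibroblasts (431 UPM) stood above its macrophages (397 UPM) and neutrophils (322 UPM). In the IRI CD45+ libraries PLAUR stood at 673 and 728 UPM in monocytes, 878 and 646 UPM in neutrophils, and 662 and 624 UPM in macrophages. Control macrophages had 323, 472 and 492 UPM. The macrophage groups do not overlap, and PLAUR rose by 0.73 ± 0.206 (log2; edgeR adjusted p = 0.0223). That call was close to the threshold and held in 6 of 13 alternative fits; leaving out any library but control library 3 ended it, with adjusted p between 0.0507 and 0.0644. Macrophages with both a PLAU and a PLAUR UMI made up 55.6% and 53.1% in the IRI CD45+ libraries, against 27.7%, 37.4% and 37.4% in the control libraries. The graft's macrophages were deeper: their median UMI count was 10942.5 and 9062 in the IRI CD45+ libraries, against 5206, 5508.5 and 6670 in the control libraries. With cells thinned to 500 UMIs, 13.9% and 24.5% of the graft's macrophages had a PLAUR UMI, against 18.7%, 17.3% and 21.4% of control macrophages.

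Dendritic cells went the other way, with 238 and 245 UPM of PLAUR in the IRI CD45+ libraries, against 306, 359 and 339 UPM in the control libraries (-0.42 ± 0.14; edgeR adjusted p = 0.0352). The call was lost without control library 2 (adjusted p = 0.13), control library 3 (0.0894) or IRI CD45+ library 1 (0.0849). T and NK cells had 7.05 and 12.5 UPM, against 3.71, 7.13 and 6.56 UPM. These ranges overlap, and the PLAUR call in T and NK cells (0.88 ± 0.311; edgeR adjusted p = 0.0225) was lost without control library 1 (0.0872) or IRI CD45+ library 2 (0.281), and when scaled to library totals (0.0576). Mast cells and basophils had 325 and 498 UPM, against 124, 483 and 292 UPM, with no call (0.22 ± 0.453; edgeR adjusted p = 0.769).

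PLAUR also rose in structural classes. Blood endothelium had 296 UPM in the graft, against 26.5, 37.0 and 34.6 UPM (3.54 ± 0.404; edgeR adjusted p = 6.68e-10). Lymphatic endothelium had 461 UPM, against 78.1, 60.1 and 69.3 UPM (2.97 ± 0.282; edgeR adjusted p = 2.65e-14). In fibroblasts PLAUR was at 431 UPM, against 56.1, 70.8 and 47.4 UPM (3.20 ± 0.254; edgeR adjusted p = 1.18e-05). Every one of these graft levels lies above the 3 control levels. Cells with a PLAU and a PLAUR UMI were 40.2% of the graft's fibroblasts, against 2.88%, 2.84% and 1.15% of control fibroblasts. Smooth muscle cells and pericytes had 309 UPM, against 77.9, 11.6 and 38.2 UPM (3.33 ± 0.449; edgeR adjusted p = 5.38e-12). Epithelial classes of the graft held PLAUR at 307 UPM (alveolar type 1), 274 UPM (secretory), 271 UPM (alveolar type 2) and 186 UPM (ciliated). Alveolar type 2 cells, 7797 in number, held 53.7% of the PLAUR UMIs of the IRI CD45- library.

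F3, tissue factor, was a gene of epithelium in the graft. It stood at 4327 UPM in alveolar type 1 cells, 3581 UPM in secretory cells, 2169 UPM in alveolar type 2 cells and 1833 UPM in ciliated cells of the IRI CD45- library. Ciliated cells of the 2 control libraries with at least 20 such cells had 214 and 115 UPM, and F3 rose by 3.87 ± 0.454 (log2; edgeR adjusted p = 2.3e-15). Alveolar type 2 cells held 57.7% and secretory cells 19.7% of the F3 UMIs of the IRI CD45- library. Over whole libraries, F3 was at 1998 UPM in IRI CD45- cells and 83.6 and 80.4 UPM in IRI CD45+ cells, against 25.8, 18.9 and 28.1 UPM in control cells, which were unsorted and held few epithelial cells.

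Vascular and stromal F3 was read beside the alveolar RNA found in the same cells. Blood endothelium had 1085 UPM of F3 in the graft, against 26.5, 8.23 and 32.7 UPM in the control libraries (5.86 ± 0.395; edgeR adjusted p = 3.38e-17). Lymphatic endothelium had 789 UPM, against 4.88, 2.14 and 13.9 UPM (6.80 ± 0.353; edgeR adjusted p = 4.98e-23). Smooth muscle cells and pericytes had 1043 UPM, against 127, 81.1 and 147 UPM (3.52 ± 0.365; edgeR adjusted p = 7.37e-20). Fibroblasts had 875 UPM, against 102, 43.6 and 69.6 UPM (3.97 ± 0.395; edgeR adjusted p = 0.0011). All 4 classes of the graft therefore lie above their controls in F3.

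Markers of alveolar type 2 cells moved with these values. Their sum was 48077 UPM in the graft's blood endothelium, 40368 UPM in its lymphatic endothelium, 47702 UPM in its smooth muscle cells and pericytes and 12533 UPM in its fibroblasts, with 8 or 9 of 9 markers found, against 14.6 to 264 UPM in the same classes of the control libraries. SFTPC, the surfactant protein C gene of alveolar type 2 cells, was used as a yardstick: the SFTPC level of a class, times the ratio of F3 to SFTPC in alveolar type 2 cells, gives the F3 that would come with it. This gave 798 of 1085 UPM in blood endothelium, 680 of 789 UPM in lymphatic endothelium, 790 of 1043 UPM in smooth muscle cells and pericytes, and 194 of 875 UPM in fibroblasts. For fibroblasts the same sum with SCGB1A1, a secretory cell gene, gave 254 UPM. B cells of the graft CD45- library had 135 UPM of F3 where SFTPC gave 158, and its T and NK cells 210 UPM where SFTPC gave 243.

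Most other genes stood further above that yardstick where they were high. In the IRI CD45- library SFTPC gave 6.79 of 8222 UPM for PLAU in fibroblasts, 2.56 of 3700 UPM for PLAT in lymphatic endothelium, and 22.5 of 865 UPM for THBD in blood endothelium. For PLAUR it gave 99.9 of 296 UPM in blood endothelium and 98.9 of 309 UPM in smooth muscle cells and pericytes. Alveolar type 1 cells had 4327 UPM of F3 where SFTPC gave 896, secretory cells 3581 where it gave 249, and ciliated cells 1833 where it gave 319.

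**Figure D4:**
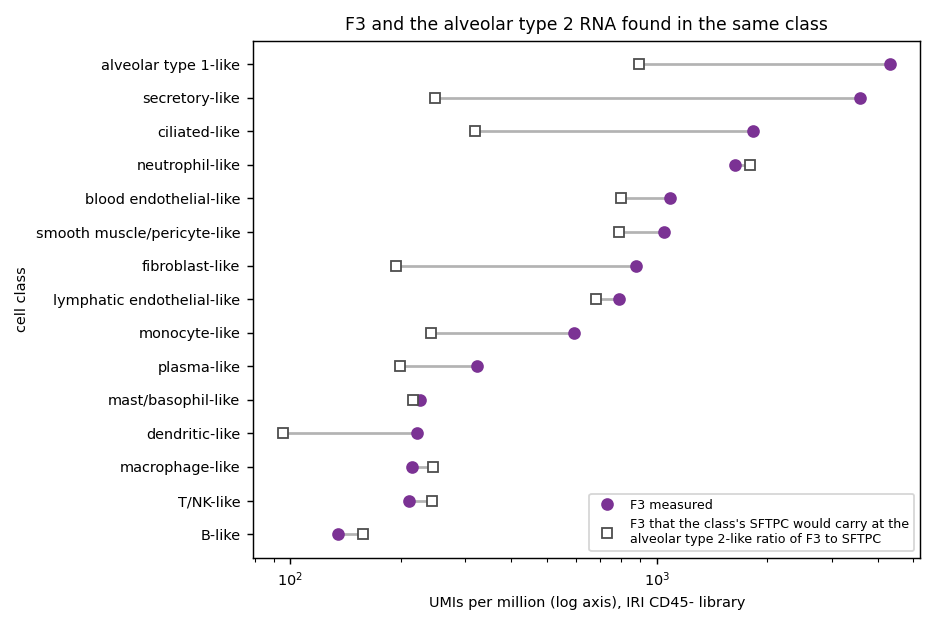
F3 level in each class of the IRI CD45- library (filled points, UPM, log axis) beside the level that the class's SFTPC would carry at the F3 to SFTPC ratio of alveolar type 2 cells (open squares). The gap is wide in secretory cells (3581 against 249 UPM) and narrow in lymphatic endothelium (789 against 680 UPM), and in neutrophils, macrophages, T and NK cells and B cells the square lies to the right of the point.

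F3 was also present in myeloid cells of the IRI CD45+ libraries, where alveolar RNA was near 0. Monocytes had 780 and 250 UPM and held 63.5% and 80.8% of these libraries' F3 UMIs. Macrophages rose to 407 and 140 UPM, against 73.4, 62.0 and 47.0 UPM in the control libraries (2.29 ± 0.394; edgeR adjusted p = 0.00442), and the call held in 13 of 13 alternatives. SFTPC in these macrophages was at 6.71 and 0 UPM, which would carry at most 0.123 UPM of F3. Of the 36 and 49 IRI CD45+ macrophages, 44.4% and 32.7% had an F3 UMI, against 19.7%, 16.4% and 16.9% of control macrophages. Thinning to 500 UMIs left shares of 16.7% and 10.2% in the graft, against 3%, 2.48% and 3.42% in the control libraries. Monocyte markers summed to 3857 and 1679 UPM in the graft's macrophages, against 3597 to 5495 UPM in control macrophages. T and NK cells, a background with 3.18 and 2.63 UPM in the IRI CD45+ libraries, against 2.10, 2.87 and 2.71 UPM in the control libraries, gave no call for F3 (0.35 ± 0.37; edgeR adjusted p = 0.421). In dendritic cells F3 was at 3.28 and 6.08 UPM, against 8.58, 2.47 and 5.05 UPM (0.00 ± 0.589; edgeR adjusted p = 0.998).

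TFPI, the inhibitor of the F3 complex, was the 1 gene that fell in a structural class. Lymphatic endothelium had 36.4 UPM (12 UMIs) in the graft, against 210, 154 and 194 UPM (43, 72 and 112 UMIs) in the control libraries (-2.11 ± 0.421; edgeR adjusted p = 4.41e-05). The share of these cells with a TFPI UMI was 5.23% in the graft, against 45.2%, 29.0% and 37.4%, and 0.581% after thinning, against 11.9%, 7.97% and 8.39%. Blood endothelium had 10.1 UPM in the graft, against 0, 4.11 and 5.76 UPM, from 7 UMIs and 4 UMIs in all, which was too few for a test. Elsewhere TFPI was at or near 0: control macrophages had 0.403, 0.83 and 0.27 UPM, and the graft's fibroblasts had 0 UMIs.

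TFPI2, a Kunitz-type inhibitor related to TFPI, was highest in fibroblasts and in mast cells and basophils. Fibroblasts had 896 UPM in the graft, against 504, 467 and 479 UPM in the control libraries, and TFPI2 rose by 1.2 ± 0.195 (log2; edgeR adjusted p = 0.00122). In mast cells and basophils it stood at 1533 and 1322 UPM in the IRI CD45+ libraries, against 96.2, 626 and 439 UPM. These groups do not overlap, but the call (1.66 ± 0.508; edgeR adjusted p = 0.0379) was lost with DESeq2 (DESeq2 adjusted p = 0.181), without control library 3 (edgeR adjusted p = 0.0808), without IRI CD45+ library 2 (0.401) and with a stricter cell filter (0.06). Control library 1, with 96.2 UPM, also had the lowest sum of mast cell and basophil markers in that class, 2412 UPM, against 4024 to 7798 UPM in the other 4 libraries of the fit.

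In the IRI CD45+ libraries TFPI2 also rose in dendritic cells and macrophages. Dendritic cells had 41 and 46.2 UPM, against 1.72, 1.23 and 1.38 UPM (4.95 ± 0.428; edgeR adjusted p = 1.2e-05). Dendritic cells of the IRI CD45- library, outside that fit, had 5.92 UPM from 2 UMIs. Macrophages had 76.0 and 49.2 UPM, against 6.85, 20.2 and 15.4 UPM (2.25 ± 0.412; edgeR adjusted p = 0.00275). Both calls held in every alternative that tested them. Monocytes of the IRI CD45+ libraries had 155 and 117 UPM. Levels in T and NK cells were near background at 2.09 and 2.32 UPM in the graft, against 1.24, 2.48 and 1.47 UPM, with no call (0.48 ± 0.448; edgeR adjusted p = 0.354).

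Lymphatic endothelium had 179 UPM of TFPI2 in the graft, against 78.1, 72.9 and 43.3 UPM (1.73 ± 0.366; edgeR adjusted p = 0.000118). Smooth muscle cells and pericytes had 76.4 UPM, against 42.5, 34.7 and 29.99 UPM. This call (1.55 ± 0.569; edgeR adjusted p = 0.0244) rested on 81 graft and 23 control UMIs, held in 4 of 9 alternatives and was lost without control library 2 (0.083) or 3 (0.147). Blood endothelium had 56.1 UPM in the graft, against 39.7, 53.5 and 21.1 UPM, with no call (1.03 ± 0.534; edgeR adjusted p = 0.143).

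THBD, the thrombin receptor thrombomodulin, was called higher in lymphatic endothelium and fibroblasts, and gave no call in blood endothelium or in smooth muscle cells and pericytes. Blood endothelium had 865 UPM in the graft, against 1641, 856 and 916 UPM in the control libraries, so the graft lies within the control range. The log2 difference was 0.01 ± 0.353 (edgeR adjusted p = 0.985), with an interval of -0.68 to 0.70, and turned to -0.40 when libraries were scaled to their totals. Lymphatic endothelium rose to 919 UPM, against 425, 369 and 409 UPM (1.42 ± 0.21; edgeR adjusted p = 7.71e-08). Fibroblasts rose to 458 UPM, against 18.2, 22.5 and 25.4 UPM (4.65 ± 0.216; edgeR adjusted p = 2.2e-07). Smooth muscle cells and pericytes had 49.1 UPM, against 0, 34.7 and 29.99 UPM, with no call (1.46 ± 0.689; edgeR adjusted p = 0.0915). A THBD UMI was found in 27.9% of the graft's fibroblasts, against 6.12%, 5.78% and 7.19% of control fibroblasts. The B cells of the same graft library had 4.35%. Cells with both PLAT and THBD made up 42.4% of the graft's lymphatic endothelium, against 7.14%, 5.8% and 6.45% of that of the control libraries.

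In myeloid cells THBD differed between the 2 IRI CD45+ libraries. Macrophages had 89.4 and 268 UPM there, against 144, 159 and 105 UPM in the control libraries, and monocytes had 120 and 397 UPM. No change was called in macrophages (0.56 ± 0.413; edgeR adjusted p = 0.336). Without IRI CD45+ library 1 the value was 1.13 (edgeR adjusted p = 0.00906), and without library 2 it was -0.52. F3 had the opposite order in the same libraries, as given above: 407 and 140 UPM in macrophages and 780 and 250 UPM in monocytes. Dendritic cells had 13.1 and 37.7 UPM of THBD, against 44.1, 38.5 and 62.0 UPM, with no call (-0.78 ± 0.388; edgeR adjusted p = 0.136).

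Classes were compared for their changes on log2 levels with limma. On simulated data limma made more false calls than its threshold allows, and so, to a lesser degree, did edgeR for macrophages and blood endothelium. THBD changed less in blood endothelium than in fibroblasts (difference of log2 changes -4.61 ± 0.566; limma adjusted p = 0.000337), as did PLAU (-2.58 ± 0.535; 0.00563). F3 changed more in blood endothelium (1.82 ± 0.501; limma adjusted p = 0.0243), with the alveolar RNA of both classes as given above. These are 3 of 6 genes, where 15.8% of all genes were called. For PLAT (1.58 ± 0.796; limma adjusted p = 0.208), PLAUR (0.17 ± 0.478; 0.857) and TFPI2 (-0.27 ± 0.557; 0.791) no difference was called. Between macrophages and T and NK cells, 1 of 4 genes was called where 16.8% of all genes were: PLAU changed less in macrophages (-2.95 ± 0.552; limma adjusted p = 0.0163), a call lost without each of the control libraries (0.096, 0.0623 and 0.0816).

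The other 55 genes of the clotting and clot-lysis lists were counted in the same fits. Of the other fibrinolysis genes tested, 6 of 11 rose in fibroblasts and 0 fell, 6 of 8 rose in smooth muscle cells and pericytes and 1 fell, 5 of 9 rose in blood endothelium and 0 fell, and 3 of 7 rose in lymphatic endothelium and 0 fell. Of all genes, 11.6%, 19.1%, 16.5% and 15.7% were higher in these 4 classes and 13.1%, 12.8%, 12.7% and 15.5% lower. Their median log2 change was 1.11 in fibroblasts, 2.00 in smooth muscle cells and pericytes, 1.40 in blood endothelium and 0.67 in lymphatic endothelium. The median of all genes tested was -0.81 in fibroblasts, -0.08 in smooth muscle cells and pericytes, -0.11 in blood endothelium and -0.15 in lymphatic endothelium. Among coagulation factors and cofactors, 0 of 9 rose and 2 fell in fibroblasts, 0 of 5 rose and 2 fell in blood endothelium, 0 of 5 rose and 1 fell in lymphatic endothelium, and 0 of 3 rose and 1 fell in smooth muscle cells and pericytes. With so few genes tested, 0 higher is near the share over all genes. Anticoagulants and inhibitors were mixed, with 2 of 6 higher and 3 lower in fibroblasts, 0 of 4 higher and 2 lower in lymphatic endothelium, 0 of 5 higher and 1 lower in blood endothelium, and 1 of 2 higher and 0 lower in smooth muscle cells and pericytes.

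Genes that hold plasminogen at the cell surface were among those that rose. S100A10, which binds plasminogen as a partner of ANXA2, rose by 4.002 ± 0.35 in smooth muscle cells and pericytes, 2.37 ± 0.184 in fibroblasts, 2.29 ± 0.332 in blood endothelium and 1.58 ± 0.165 in lymphatic endothelium (log2; edgeR). ENO1, a glycolytic enzyme that also binds plasminogen, rose by 2.40 ± 0.228 in fibroblasts, 1.84 ± 0.368 in smooth muscle cells and pericytes, 1.68 ± 0.249 in lymphatic endothelium and 1.41 ± 0.346 in blood endothelium. ANXA2 rose in the same 4 classes, by 0.55 to 2.15, with the lowest value in lymphatic endothelium, where its call was lost in 4 of 9 alternatives. Alveolar RNA carries these genes too: the SFTPC yardstick gave 998 of 2172 UPM of S100A10 in the graft's blood endothelium, 850 of 2748 UPM in its lymphatic endothelium, 988 of 3986 UPM in its smooth muscle cells and pericytes and 242 of 3697 UPM in its fibroblasts. For ANXA2 it gave 601 of 1134 UPM in blood endothelium, 512 of 1595 UPM in lymphatic endothelium, 595 of 1195 UPM in smooth muscle cells and pericytes and 146 of 1819 UPM in fibroblasts. For ENO1 it gave 130 of 392 UPM in blood endothelium and 31.5 of 565 UPM in fibroblasts, with the other 2 classes between in share. THBS1, thrombospondin 1, rose to 7663 UPM in smooth muscle cells and pericytes, against 1161, 1280 and 744 UPM, and to 5103 UPM in fibroblasts, against 779, 829 and 808 UPM. SERPINE2, an inhibitor of thrombin and plasminogen activators, rose to 139 UPM in blood endothelium, against 0, 8.23 and 1.92 UPM (5.76 ± 0.643; edgeR adjusted p = 3.98e-10). A2M, a broad protease inhibitor of plasma, fell to 46.2 UPM in smooth muscle cells and pericytes, against 2258, 3011 and 2124 UPM (-5.32 ± 0.536; edgeR adjusted p = 5.1e-21).

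**Figure D5:**
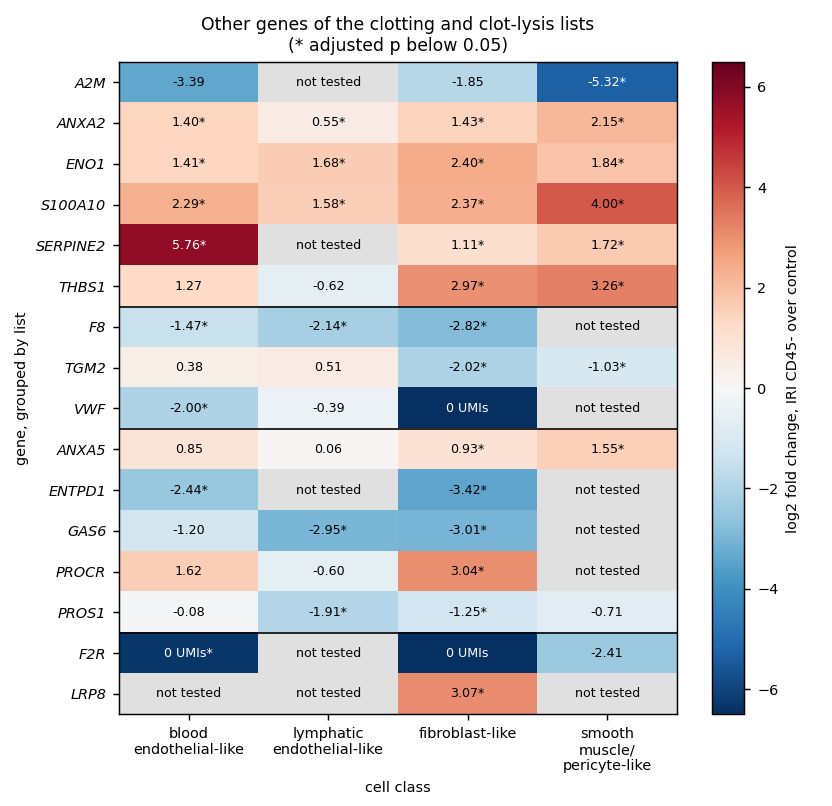
Log2 fold change, IRI CD45- over control, of other list genes named by the selection rule, in 4 vascular and stromal classes (stars mark an edgeR adjusted p under 0.05; lines part fibrinolysis genes, coagulation factors, anticoagulants and protease receptors; genes without a UMI in the graft are marked 0 UMIs). S100A10 is red and starred in every column, and the starred coagulation factors F8, VWF and TGM2 are blue.

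Of 5 coagulation factors tested in each endothelial class, the calls in blood endothelium were VWF and F8 and the call in lymphatic endothelium was F8. VWF, von Willebrand factor, fell to 190 UPM in blood endothelium, against 1160, 958 and 890 UPM (-2.003 ± 0.392; edgeR adjusted p = 7.12e-05). F8, coagulation factor VIII, fell to 94.0 UPM in lymphatic endothelium, against 464, 489 and 492 UPM (-2.14 ± 0.31; edgeR adjusted p = 4.38e-08), and to 34.5 UPM in blood endothelium, against 146, 107 and 127 UPM (-1.47 ± 0.49; edgeR adjusted p = 0.0188). The call in blood endothelium was lost without control library 3 and with DESeq2. In fibroblasts F8 was at 3.45 UPM, against 25.8, 33.3 and 30.4 UPM (-2.82 ± 0.847; edgeR adjusted p = 0.0329), a call that DESeq2 did not make. TGM2, a transglutaminase, fell in fibroblasts (-2.02 ± 0.298) and in smooth muscle cells and pericytes (-1.03 ± 0.412), the second call being lost in 6 of 9 alternatives. The thrombin receptor F2R had 0 UMIs in the graft's blood endothelium, against 24 in the control libraries, and was at least 6.03-fold lower when set against a floor of 3 UMIs in the graft library. DESeq2 did not call it.

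Among anticoagulants, PROCR, the endothelial protein C receptor, rose in fibroblasts to 358 UPM, against 63.6, 60.0 and 40.4 UPM (3.04 ± 0.279; edgeR adjusted p = 4.34e-05). PROS1, protein S, fell to 27.3 UPM in lymphatic endothelium, against 117, 127 and 116 UPM, and to 68.9 UPM in fibroblasts, against 192, 208 and 207 UPM. GAS6, a homologue of protein S, fell in lymphatic endothelium (-2.95 ± 0.709) and in fibroblasts (-3.01 ± 0.61). DESeq2 called neither PROS1 nor GAS6 in lymphatic endothelium. ENTPD1 (CD39), which degrades the platelet agonist ADP, fell in fibroblasts (-3.42 ± 0.71), blood endothelium (-2.44 ± 0.656), dendritic cells (-2.47 ± 0.318), T and NK cells (-2.04 ± 0.182) and macrophages (-1.93 ± 0.406). ANXA5, which covers procoagulant phospholipid, rose in smooth muscle cells and pericytes (1.55 ± 0.36). LRP8, a lipoprotein receptor of the protease receptor list, rose in fibroblasts (3.07 ± 1.02; edgeR adjusted p = 0.0488), a call lost in 4 of 8 alternatives.

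In macrophages, 1 of 11 other fibrinolysis genes rose and 2 fell, and 2 of 8 coagulation factors rose and 0 fell, where 12.4% of all genes were higher and 17.7% lower. The fibrinolysis counts are near those shares. F13A1, the factor XIII A subunit that crosslinks fibrin, rose to 349 and 252 UPM in IRI CD45+ macrophages, against 141, 113 and 61.9 UPM (1.65 ± 0.32; edgeR adjusted p = 0.00528), a call lost without either IRI CD45+ library. TGM2 rose to 17.9 and 86.6 UPM, against 11.7, 24.6 and 15.1 UPM (1.77 ± 0.575; edgeR adjusted p = 0.048), with overlapping ranges and a call lost in 4 of 13 alternatives. CPB2, a carboxypeptidase that protects fibrin from lysis, had 0 UMIs in IRI CD45+ macrophages, against 90 in control macrophages, and was at least 2.89-fold lower against a floor of 3 UMIs over both graft libraries. In dendritic cells F13A1 rose to 153 and 196 UPM, against 42.3, 45.6 and 24.8 UPM (2.27 ± 0.249; edgeR adjusted p = 6.21e-05), and TGM2 to 36.1 and 53.5 UPM, against 9.16, 5.86 and 10.1 UPM (2.53 ± 0.363; edgeR adjusted p = 0.000375). F10, coagulation factor X, had 0 UMIs in IRI CD45+ dendritic cells, against 180 in control dendritic cells, at least 11.3-fold lower against the same floor. ADAMTS13, the enzyme that cleaves VWF, had 0 against 90 UMIs in the same cells and was at least 6.16-fold lower.

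Of the protease receptor list, macrophages had 1 of 3 genes higher and 1 lower. LRP8 rose to 31.3 and 29.5 UPM in IRI CD45+ macrophages, against 7.66, 12.2 and 14.3 UPM (1.54 ± 0.4; edgeR adjusted p = 0.0152). ITGAM, an integrin chain that pairs with PLAUR on leukocytes, fell to 8.94 and 1.97 UPM, against 33.1, 59.0 and 24.6 UPM (-2.73 ± 0.684; edgeR adjusted p = 0.0137), a call lost without either IRI CD45+ library. In T and NK cells ITGAM rose to 19.4 and 24.2 UPM, against 6.44, 4.75 and 9.61 UPM (1.82 ± 0.24; edgeR adjusted p = 1.87e-05). Neutrophil markers summed higher in the same cells, with the values given for PLAU, and their part in the ITGAM rise was not tested.

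T and NK cells had 1 of 14 other fibrinolysis genes higher and 7 lower, 2 of 9 coagulation factors higher and 3 lower, and 2 of 5 protease receptors higher and 1 lower, where 31.7% of all genes were higher and 34.2% lower. F2R, the thrombin receptor, fell to 11.4 and 11.3 UPM in the IRI CD45+ libraries, against 30.6, 38.8 and 31.0 UPM (-1.40 ± 0.164; edgeR adjusted p = 4.32e-06). F2RL1, a receptor cut by trypsin-like proteases, rose to 9.44 and 10.7 UPM, against 3.34, 3.47 and 3.28 UPM (1.73 ± 0.253; edgeR adjusted p = 3.56e-05). SERPINB2, plasminogen activator inhibitor 2, rose to 1.69 and 1.85 UPM, against 0.124, 0.198 and 0.226 UPM (3.32 ± 0.636; edgeR adjusted p = 0.00038), a low level in both groups. VWF, a gene of endothelium and platelets, was at 0.497 and 0.309 UPM in T and NK cells of the IRI CD45+ libraries, against 25.3, 10.01 and 14.1 UPM in those of the control libraries (-5.07 ± 0.609; edgeR adjusted p = 6.93e-05). B cells had 0 VWF UMIs in the IRI CD45+ libraries, against 75 in the control libraries. The unsorted control libraries held 79, 70 and 197 blood endothelial cells, against 1 and 3 in the IRI CD45+ libraries. The part of free endothelial RNA in the lower VWF was not tested.

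For each gene, the genes most like it were found by Pearson's r of log2 levels over 54 class and library sums of at least 50 cells, graft and control together. Sums of 1 library share its depth and its free RNA, so the values are a description. PLAU came closest to NFKBIA (0.72), DUSP16 (0.71) and IFNGR2 (0.71), and PLAUR to ICAM1 (0.89), NFKBIZ (0.86) and MAFF (0.86). PLAT came closest to BCL6B (0.88), EMP2 (0.87) and ROBO4 (0.86), and THBD to ECE1 (0.83), B4GALT5 (0.81) and RALB (0.80). F3 came closest to ANKRD22 (0.91), PTGES (0.90) and CSF3 (0.90), TFPI to MMRN1 (0.98), SCG3 (0.96) and SCN3A (0.96), and TFPI2 to PTGS2 (0.81), EPB41L2 (0.80) and PAPLN (0.78).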

How the data were processed

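UMI counts per gene and cell were deposited by the authors for 6 libraries made with the DNBelab C Series HT droplet system. Per the submitters' processing notes, the build was Sscrofa11.1, with Seurat 5.5.3 and R 4.2.2 used, and the aligner is not given in the sources used here. Cells with at least 500 UMIs, 200 genes and at most 20% mitochondrial UMIs (a filter that acts on the control libraries only) were kept, and clustered with scanpy 1.11.5 on 2000 variable genes without the 7 genes and the 55 list genes. A cluster took the name of the marker list with the highest mean log2 fold, if at least 1.2 with 3 markers above 2-fold. It stayed unnamed if its leading genes held more markers of another class. The same held if it had few UMIs for its libraries and no own marker among those genes. Clusters with a second list close behind, with no name or with no own marker among their leading genes were clustered again, a rule chosen after the clusters were seen. Scrublet (expected 6%) marked 0 to 41 cells a library, which shows that it had not worked, so doublets largely remain. The 7 genes, the lists and the tests were chosen with earlier results of these data known.

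UMIs were summed per class and library with at least 20 cells. Sums were tested with edgeR 4.0.16 (quasi-likelihood, TMM, filter on low counts, R 4.3.3), with p-values adjusted by Benjamini-Hochberg over all genes of a fit at a threshold of 0.05. The difference of changes used limma 3.58.1 on log2 levels with a prior count of 2. Intervals for levels are exact Poisson and for shares exact binomial at 95%, and cover counting error only. For edgeR changes, the SE is the absolute log2 change over the square root of the F statistic, with normal intervals at 95%. These can be narrower than the edgeR p-value implies. Alternatives were DESeq2 1.42.0, library totals, no filter on low counts, a stricter cell filter, removal of the top 6% of doublet scores, clusters at resolution 2, the replicate block, addition of immune cells of the IRI CD45- library, a prior count of 0.5, and each library left out. The scripts were tested on simulated data. Other list genes were named where they were among the 4 largest called changes of a list and class in the classes described, except 1 that is counted in its list but not reported here, and the values of ANXA2 outside lymphatic endothelium and of ENO1 in smooth muscle cells were chosen after they were seen. Among 33025 genes, 139 of 17062 Ensembl IDs took a symbol from RefSeq. No sequences are shown. Unnamed cells entered no comparison.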

Additional observations from a re-analysis of the deposited data

Results flagged for a closer look

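The following results drew attention because a change differed between cell classes, or because cells outside the comparisons held more of a gene than any control cell class of at least 20 cells did. PLAU changed less in macrophages than in T and NK cells by -2.95 on the log2 scale (limma adjusted p = 0.0163), on levels of 279 and 195 UPM in IRI CD45+ macrophages and 14.4 and 12.8 UPM in IRI CD45+ T and NK cells. Between blood endothelium and fibroblasts the change differed by -4.61 for THBD, -2.58 for PLAU and 1.82 for F3, each resting on 1 IRI CD45- library. For F3 the SFTPC yardstick gave 798 of 1085 UPM in the graft's blood endothelium and 194 of 875 UPM in its fibroblasts. The part of alveolar RNA in the F3 difference was not tested.

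Clusters left unnamed were in none of the comparisons. A cluster of the IRI CD45- library led by KRT5, KRT17 and S100A2, genes of basal epithelium, held F3 at 3054 UPM (3730 UMIs in 383 cells) and PLAU at 572 UPM (698 UMIs). Unnamed cells led by TNC, IL6 and CHI3L1 had PLAU at 930 UPM and F3 at 851 UPM in 214 cells of the same library. Their score was highest for the erythroid list and next for fibroblasts. They were split from the same first cluster as 118 of the graft's 122 fibroblasts, which also gave smooth muscle and pericyte clusters. Cells with few UMIs led by OSM, GPR84, SDS and TREM1, parts of which came closest to the neutrophil list and a part to the T cell list, had PLAU at 2471 UPM (520 cells) and 814 UPM (558 cells) in the IRI CD45+ libraries and 784 UPM (117 cells) in the IRI CD45- library. Parts of 563 and 359 cells reached the score for a name as neutrophils (1.32 and 1.91). They stayed unnamed for their few UMIs and for want of a neutrophil marker among their leading genes. In 80 cells of the IRI CD45- library that came closest to the monocyte list, F3 was at 575 UPM from 55 UMIs. The SFTPC yardstick for alveolar RNA gave 365 of 1718 UPM of F3 over all unnamed cells of that library and 242 of 594 UPM in its named monocytes. Among control cell classes of at least 20 cells in a library, unnamed cells taken as 1 class, the highest upper limit was 245 UPM for PLAU and 415 UPM for F3.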

How the results depend on the processing

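Of 695 alternative values of 83 results on the 7 genes, 612 kept their direction and their side of the threshold, 34 lost the call, 19 gained one and 30 turned sign. The cause of these shifts was not tested. With 1 IRI CD45- and at most 3 control libraries, depth and number limit what can be called: genes under the low-count filter could not be tested.

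Of the 7 genes, the number called moved by over 1.5 times in 6 comparisons and by at most 1 gene in the others. Dendritic cells had 2 calls, 4 with no filter on low counts, and 1 to 3 with a library left out. Mast cells and basophils had 1, 0 with DESeq2 and with a stricter cell filter, and 0 to 1 with a library left out. T and NK cells had 2, 1 with library totals, 4 with no filter, 1 with IRI CD45- cells added, and 1 to 4 with a library left out. B cells had 0, 1 with no filter, and 0 to 1 with a library left out. Plasma cells had 1, and 0 to 1. The difference between macrophages and T and NK cells had 1, and 0 to 3.

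The changes that turned sign were none of those called. THBD in blood endothelium became -0.40 with library totals, -0.20 with a stricter cell filter, -0.082 without the top 6% of doublet scores and -0.17 at resolution 2. F3 in dendritic cells became -0.073 with DESeq2, -0.059 with library totals and -0.11 with no filter. With IRI CD45- cells added, PLAUR in B cells became 0.42 and F3 in plasma cells 3.12. TFPI between control macrophages and T and NK cells became -0.014 with library totals. With a library left out, THBD ranged from -0.52 to 1.13 in macrophages, -7.69 to 0.76 in plasma cells and -0.17 to 0.35 in blood endothelium. PLAU ranged from -0.066 to 1.35 in dendritic cells and -0.61 to 0.96 in mast cells and basophils. PLAUR ranged from -0.17 to 0.66 in mast cells and basophils, -0.81 to 0.25 in B cells, -0.24 to 0.84 in plasma cells, and -0.51 to 0.33 for the difference between macrophages and T and NK cells. F3 in dendritic cells ranged from -0.63 to 0.36, TFPI between control macrophages and T and NK cells from -0.052 to 0.13, and TFPI2 for the difference between blood endothelium and fibroblasts from -0.58 to 0.039.

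Control and IRI CD45+ libraries share 2 replicate numbers, but nothing in the labels ties a number to a transplant. With the replicate number as a block, dendritic cells had 1 call instead of 2, PLAUR being lost (edgeR adjusted p = 0.132), and THBD in plasma cells became 0.017. Over all genes the block gave 1974 calls instead of 3245 in macrophages and 455 instead of 709 in mast cells and basophils. DESeq2 called 929 of all genes instead of 2281 in blood endothelium, 788 instead of 2295 in lymphatic endothelium, 1893 instead of 3282 in fibroblasts, 838 instead of 2039 in smooth muscle cells and pericytes and 352 instead of 1161 in ciliated cells. Without control library 3, edgeR called 1320 in blood endothelium, 1220 in smooth muscle cells and pericytes and 462 in mast cells and basophils, and without the top 6% of doublet scores 711 in ciliated cells. The number of other list genes called moved by over 1.5 times in dendritic cells (14, and 9 without control library 2), mast cells and basophils (1, and up to 3), B cells (11, and 17 with no filter), plasma cells (6, and 1 to 3 without a control library), blood endothelium (9, and 14 without control library 2) and ciliated cells (6, and 2 with DESeq2 or 3 without the top 6% of doublet scores).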
